A study of Bos taurus with 6 samples.

Results

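The genes described here encode the core machinery of N6-methyladenosine (m6A), the commonest internal modification of messenger RNA. They are 10 genes chosen by name: the writers METTL3, METTL14 and WTAP, the erasers FTO and ALKBH5, and the readers YTHDF1, YTHDF2, YTHDF3, YTHDC1 and YTHDC2. All 10 were found by gene symbol among the 17325 genes of the deposited tables, and all 10 had a mean of at least 1 FPKM (fragments per kilobase, relative to all mapped fragments), the minimum for testing. Oocytes of the cow were matured in culture to metaphase II, when the egg is ready for fertilization, and sequenced as 6 libraries. Of these, 3 are labelled siMTFP1, for knockdown of MTFP1, and 3 are labelled NC, for negative control. The MTFP1 protein sits in the inner membrane of mitochondria and takes part in their division. The labels give no strain, no number of oocytes per library and no statement that replicates came from separate animals or cultures, so the p-values reflect the spread among these 6 libraries, part of which may be technical.

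In the writer complex METTL3 transfers the methyl group, METTL14 holds the RNA, and WTAP anchors the pair in nuclear speckles. FTO and ALKBH5 oxidize the mark away, and proteins with a YTH domain bind it. In the mouse, loss of the writer METTL3 or of the reader YTHDC1 in oocytes impairs oocyte development or maturation. YTHDC2 is needed there for germ cells to progress through meiosis.

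The libraries showed the oocyte identity given by the labels. All 11 oocyte markers, among them GDF9, BMP15 and H1FOO, were above the minimum. Their summed level was 23743 to 24198 FPKM in the libraries labelled siMTFP1 and 23201 to 24492 FPKM in those labelled NC. Most of that sum came from BTG4 (mean 10120 FPKM over the 6 libraries) and H1FOO (6817 FPKM). The log2 difference was positive for 9 of these markers and negative for 2. DAZL had the largest, 0.91 (limma adjusted p = 0.698), with means of 54.9 FPKM in the siMTFP1 and 30.3 FPKM in the NC libraries. Of 16 markers of the cumulus and granulosa cells that surround the oocyte, 11 were above the minimum. The 16 summed to 150.6 to 185 FPKM in the siMTFP1 libraries and 134 to 165 FPKM in the NC libraries. The highest were STAR (mean 65.65 FPKM over the 6 libraries), HAS2 (41.51 FPKM) and VCAN (14.92 FPKM). The lowest, FSHR, was listed at 0 in all libraries but NC 3. CYP19A1, INHBA, AMH and FOXL2, also below the minimum, had means of 0.18, 0.77, 0.045 and 0.023 FPKM. Some markers varied widely between libraries: LUM (0.38 to 22.85 FPKM), INHA (0.65 to 15.65 FPKM) and TNFAIP6 (1.06 to 17.14 FPKM). Among the 11 tested, the log2 difference was positive for 7 and negative for 4. It ran from -1.36 (TNFAIP6, limma adjusted p = 0.766) to 1.46 (INHA, limma adjusted p = 0.750). Of 6 blood markers 5 were found, with sums of 25.76 to 59.95 FPKM in the libraries labelled siMTFP1 and 47.29 to 75.05 FPKM in those labelled NC. Nearly all of that was the haemoglobin gene HBA (log2 difference -0.83, limma adjusted p = 0.750), while PTPRC and CD14, markers of white blood cells, were each listed at 0 in all libraries but 1. The part of these cells in the values below was not tested. The targeted transcript MTFP1 lay between 0.43 and 1.15 FPKM in the libraries labelled siMTFP1 and between 0.05 and 0.55 FPKM in those labelled NC. It was therefore not lower under the knockdown label (log2 difference 0.32, exact two-sided permutation test, p = 0.4, where 0.1 is the smallest p possible), and each direction below is that of the labels. The mean of MTFP1 was 0.55 FPKM, below the minimum for testing, and its log2 difference was 0.14 without NC 3. Values this low cannot settle whether the transcript was knocked down. Total FPKM per library ran from 784366 to 892790.4. Read depth is unknown, because FPKM keeps no read total.

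The 10 genes spanned a wide range of levels, from WTAP at a mean of 243 FPKM over the 6 libraries to FTO at 2.26 FPKM. WTAP lay above 96.8% of all genes and FTO above 54.5%. In descending order of mean FPKM they ran WTAP, ALKBH5, YTHDF2, METTL14, METTL3, YTHDF1, YTHDF3, YTHDC1, YTHDC2 and FTO. FPKM is divided by transcript length, so these levels can be set side by side as far as the authors' transcript lengths hold. Of the 9 pairs of neighbours in this order, 7 kept the same order in 6 of 6 libraries. The exceptions were YTHDF2 and METTL14, with YTHDF2 higher in 3 of 6 libraries, and YTHDC2 and FTO, with YTHDC2 higher in 4 of 6. YTHDF1 and YTHDF3 were close as well, with a ratio of means of 1.11, although YTHDF1 was the higher in each library. The largest step was between WTAP and ALKBH5, where the ratio of means was 5.82.

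**Figure D1:**
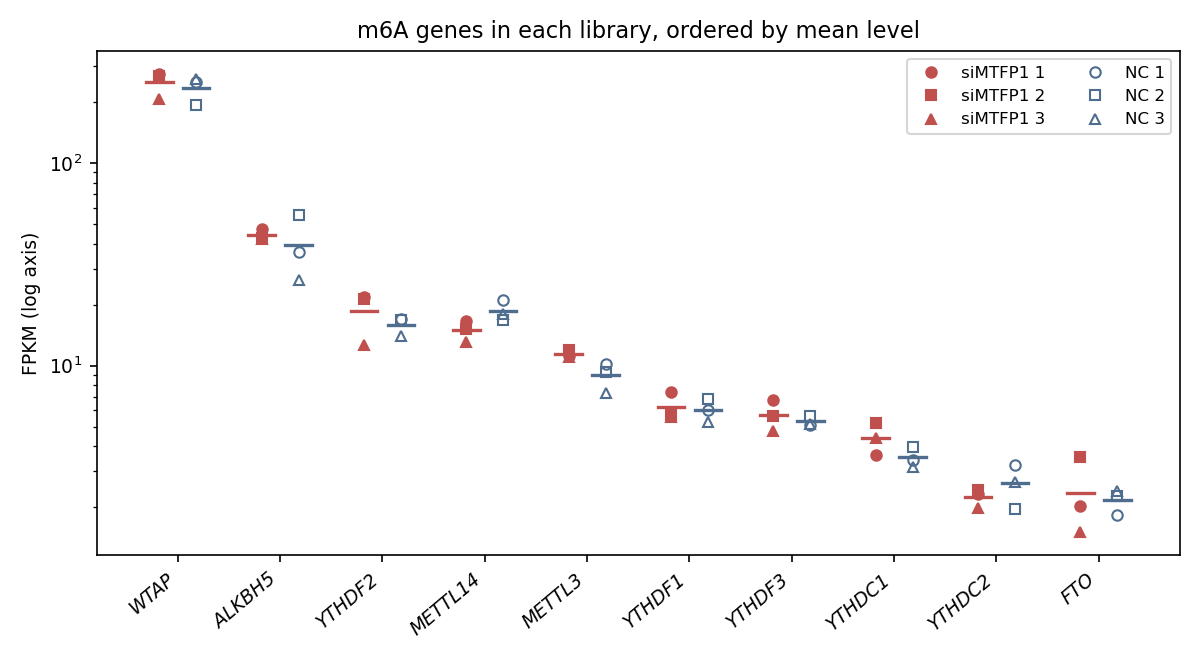
FPKM on a log axis of the 10 m6A genes in each of the 6 libraries, with siMTFP1 libraries as filled and NC libraries as open symbols and horizontal lines at the group means. WTAP (mean 243 FPKM) stands apart at the top, and FTO (2.26 FPKM) and YTHDC2 (2.44 FPKM) sit at the bottom. The 2 groups do not overlap in METTL3 and, narrowly, in METTL14, where 11.0% of all tested genes showed no overlap.

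None of the 10 genes passed the threshold between the labelled groups. The comparison used limma on log2(FPKM + 1) across all 9730 genes with a mean of at least 1 FPKM, with Benjamini-Hochberg adjustment, and called 0 of 9730 genes (0%) at an adjusted p under 0.05. At an unadjusted p under 0.05 there were 0 of the 10 members, against 635 of all tested genes (6.53% of them, made up of 3.86% with siMTFP1 the higher and 2.66% with siMTFP1 the lower). The log2 difference was positive, that is higher in the libraries labelled siMTFP1, for 8 members and negative for 2, METTL14 and YTHDC2, and it was positive for 54.2% of all tested genes. The median log2 difference was 0.087 for the members and 0.022 for all tested genes. The median of the members was 0.23 without siMTFP1 3 and 0.037 without siMTFP1 1, and with quantile normalization the differences of FTO and YTHDF1 changed sign. The 95% confidence intervals of the 10 log2 differences reached from -0.66 (METTL14) at the lowest to 0.77 (ALKBH5) at the highest. Changes inside a gene's own interval were not resolved. That interval was -0.042 to 0.69 for METTL3 and -0.66 to 0.065 for METTL14. In these bulk libraries, fewer contributing cells and less RNA per cell cannot be told apart.

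**Figure D2:**
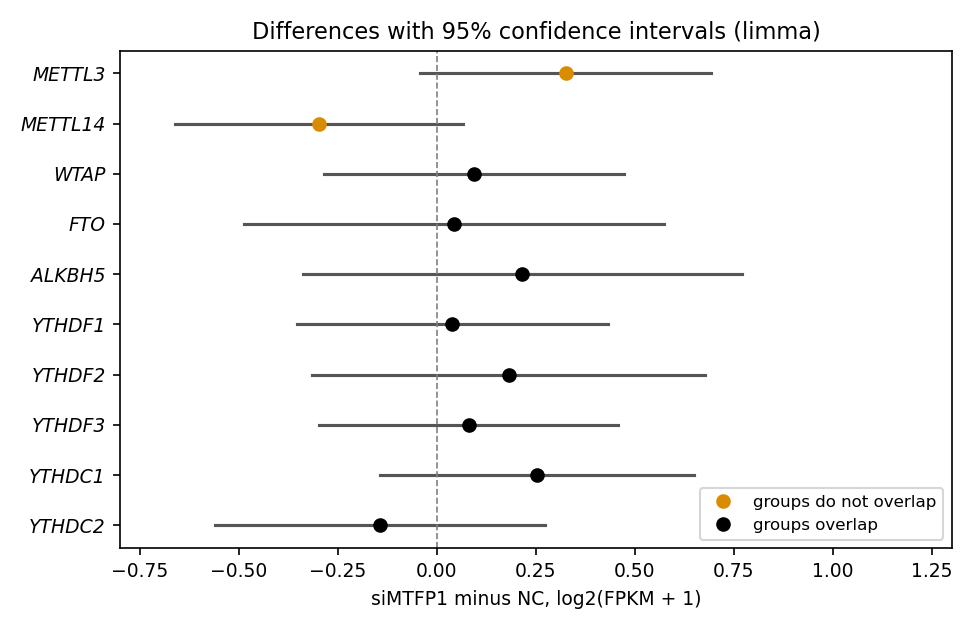
Difference in log2(FPKM + 1), siMTFP1 minus NC, for the 10 m6A genes, with 95% confidence intervals from limma (3 libraries per group). Every interval includes 0, with METTL3 at 0.33 and METTL14 at -0.30 as the highest and lowest estimates. These are the genes whose groups do not overlap, where 11.0% of all tested genes showed no overlap.

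Among the writers, the catalytic subunit METTL3 and its partner METTL14 leaned in opposite directions, and WTAP overlapped between the groups. METTL3 had 11.16, 11.87 and 11.04 FPKM in the libraries labelled siMTFP1 1, 2 and 3, against 10.15, 9.30 and 7.34 FPKM in those labelled NC 1, 2 and 3. Each siMTFP1 library lay above each NC library, and NC 3 was the lowest of the 6. The means were 11.4 ± 0.449 FPKM and 8.93 ± 1.44 FPKM (SD, n = 3 each), and limma gave a log2 difference of 0.33 with an SE of 0.16 (adjusted p = 0.789), which was 0.21 without NC 3.

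METTL14 had 16.59, 15.22 and 12.99 FPKM in the libraries labelled siMTFP1, against 21.04, 16.70 and 18 FPKM in those labelled NC. Each siMTFP1 library lay below each NC library, but siMTFP1 1 and NC 2 differed by little, and the separation was lost when FPKM were rescaled to equal sums. The means were 14.9 ± 1.82 FPKM and 18.6 ± 2.23 FPKM (SD, n = 3 each), and limma gave a log2 difference of -0.30 with an SE of 0.16 (adjusted p = 0.818). These 2 genes make up the members whose groups did not overlap, 2 of 10, where 11.0% of all tested genes showed no overlap (5.97% higher and 5.05% lower in the libraries labelled siMTFP1).

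WTAP, the abundant scaffold of the complex, had 275.63, 269.59 and 207.52 FPKM in the libraries labelled siMTFP1, against 251.87, 193.92 and 259.20 FPKM in those labelled NC. One library of each group, siMTFP1 3 and NC 2, was low, and the groups overlapped. WTAP differed by 0.094 on the log2 scale (SE 0.17, limma adjusted p = 0.954), by -0.038 without NC 2 and by 0.23 without siMTFP1 3.

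The balance between the paired writers can be read within a library, where the library's scaling cancels. METTL14 exceeded METTL3 in every library, with a ratio of 1.49, 1.28 and 1.18 in the libraries labelled siMTFP1 1, 2 and 3 and of 2.07, 1.80 and 2.45 in those labelled NC 1, 2 and 3. The ratio averaged 1.32 ± 0.158 and 2.11 ± 0.330 (SD, n = 3 each), and the groups did not overlap. With METTL3 higher and METTL14 lower in each siMTFP1 library than in each NC library, the ratio could not overlap. Its separation is therefore no result beyond those of the single genes. METTL14 as a percentage of WTAP also did not overlap, at 5.65% to 6.26% in the siMTFP1 libraries and 6.94% to 8.61% in the NC libraries. METTL3 as a percentage of WTAP did overlap, with 4.05% to 5.32% in the siMTFP1 libraries and 2.83% to 4.80% in the NC libraries. Of the 45 ratios that the 10 genes allow, 5 (11.1%) had groups that did not overlap, against 12.2% of all ratios between tested genes, so the members' ratios separated the groups about as often as those of any genes. Leaving out each library in turn moved the log2 difference in the METTL14 to METTL3 ratio between -0.78 and -0.56.

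**Figure D3:**
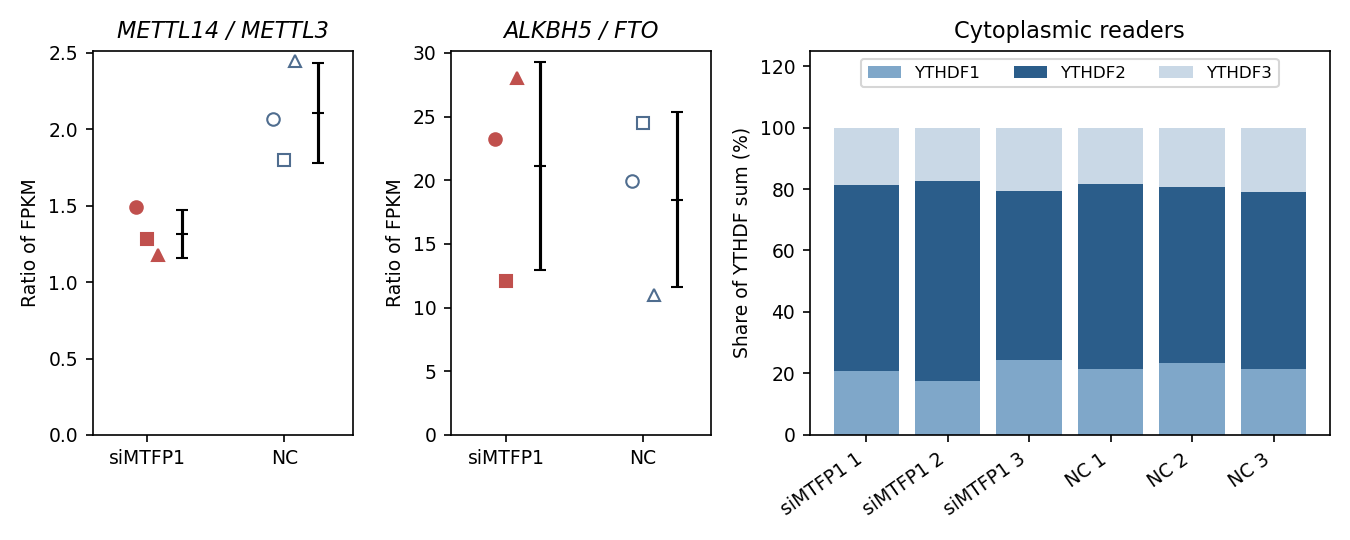
Left and centre, the ratio of METTL14 to METTL3 FPKM and of ALKBH5 to FTO FPKM in each library, by labelled group, with mean and SD in black (n = 3 each). The METTL14 to METTL3 ratio is 1.18 to 1.49 in the siMTFP1 libraries and 1.80 to 2.45 in the NC libraries, while the ALKBH5 to FTO ratio overlaps. Right, stacked bars give the percentage of the summed YTHDF FPKM from YTHDF1, YTHDF2 and YTHDF3 in each library, with YTHDF2 at 54.9% to 65.3%.

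Of the erasers, ALKBH5 was the abundant one in every library. ALKBH5, which removes m6A in the nucleus, had 47.15, 42.82 and 41.93 FPKM in the libraries labelled siMTFP1, against 36.43, 55.63 and 26.31 FPKM in those labelled NC. The siMTFP1 libraries lay close together, inside the range of the NC libraries, of which NC 2 was the highest of the 6 and NC 3 the lowest. The coefficient of variation was 6.35% among siMTFP1 libraries and 37.7% among NC libraries, against medians of 16.0% and 16.8% over all tested genes. The log2 difference was 0.22 (SE 0.24, limma adjusted p = 0.922), and it was -0.036 without NC 3 and 0.49 without NC 2.

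FTO, which acts on m6A and on the related cap modification m6Am, had 2.03, 3.54 and 1.5 FPKM in the libraries labelled siMTFP1, against 1.83, 2.27 and 2.39 FPKM in those labelled NC. Both the highest and the lowest value belonged to siMTFP1 libraries. FTO differed by 0.044 on the log2 scale (SE 0.23, limma adjusted p = 0.986), and it turned to -0.20 without siMTFP1 2. Library siMTFP1 2 also had the highest summed level of the cumulus and granulosa markers. There LUM (22.85 FPKM) and INHA (15.65 FPKM) were at their highest, while STAR (64.29 FPKM), HAS2 (48.18 FPKM) and VCAN (16.67 FPKM) were not. The part of these markers in the FTO value was not tested. The span of FTO overlaps that of RPGRIP1L, a gene of the ciliary transition zone, in the RefSeq annotation of ARS-UCD2.0. It also overlaps long noncoding RNA genes without values here. Of the other members only YTHDF1 overlapped a gene, LOC112449235, which had 0 to 0.36 FPKM. RPGRIP1L had 6.46 to 9.19 FPKM in the siMTFP1 libraries and 7.79 to 9.52 FPKM in the NC libraries. The sources used here do not state whether counting used strand. Reads of FTO and RPGRIP1L may therefore not have been told apart wherever their exons overlap, which was not examined. ALKBH5 exceeded FTO by a ratio of 12.1 to 28.0 in the siMTFP1 libraries and of 11.0 to 24.5 in the NC libraries.

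The cytoplasmic readers YTHDF1, YTHDF2 and YTHDF3, paralogues that bind m6A through the same domain, were led by YTHDF2 in every library. YTHDF2, which recruits the CCR4-NOT deadenylase to methylated transcripts, had 21.76, 21.33 and 12.62 FPKM in the libraries labelled siMTFP1, against 16.89, 16.71 and 14.00 FPKM in those labelled NC. Libraries siMTFP1 1 and 2 lay above all NC libraries and siMTFP1 3 below them. YTHDF2 differed by 0.18 on the log2 scale (SE 0.22, limma adjusted p = 0.928), and it was 0.42 without siMTFP1 3, 0.053 without siMTFP1 1 and 0.067 without siMTFP1 2. YTHDF2 contributed 60.6%, 65.3% and 54.9% of the summed YTHDF FPKM in the siMTFP1 libraries and 60.3%, 57.3% and 57.4% in the NC libraries.

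YTHDF1, linked to translation of methylated transcripts in human cells, had 7.42, 5.67 and 5.60 FPKM in the libraries labelled siMTFP1, against 6.01, 6.81 and 5.24 FPKM in those labelled NC. YTHDF3, described as a partner of the other two, had 6.72, 5.64 and 4.75 FPKM in the libraries labelled siMTFP1, against 5.11, 5.63 and 5.16 FPKM in those labelled NC. In both genes siMTFP1 1 was the highest library and the groups overlapped. Their log2 differences were 0.039 (SE 0.17) and 0.080 (SE 0.17), with limma adjusted p-values of 0.985 and 0.963. Without siMTFP1 1 they were -0.075 and -0.027.

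The YTHDC readers were scarcer than the YTHDF readers. YTHDC1, the nuclear reader that takes part in splicing and export, had 3.61, 5.22 and 4.4 FPKM in the libraries labelled siMTFP1, against 3.43, 3.96 and 3.17 FPKM in those labelled NC. NC 2 lay above siMTFP1 1, so the groups overlapped. YTHDC1 differed by 0.25 on the log2 scale (SE 0.17, limma adjusted p = 0.877), and by 0.15 without siMTFP1 2.

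YTHDC2, a reader with an RNA helicase domain, had 2.33, 2.44 and 1.98 FPKM in the libraries labelled siMTFP1, against 3.23, 1.96 and 2.67 FPKM in those labelled NC. NC 2 was the lowest of the 6 libraries and NC 1 the highest. The log2 difference was -0.14 (SE 0.18, limma adjusted p = 0.934), and it was -0.023 without NC 1 and -0.28 without NC 2. YTHDC1 exceeded YTHDC2 in every library, by a ratio of 1.55 to 2.22 in the siMTFP1 libraries and of 1.06 to 2.02 in the NC libraries.

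Summed by role, the writers had 303, 297 and 232 FPKM in the libraries labelled siMTFP1 and 283, 220 and 285 FPKM in those labelled NC, of which WTAP was the main part. The YTHDF readers summed to 35.9, 32.6 and 23.0 FPKM in the siMTFP1 libraries and 28.0, 29.1 and 24.4 FPKM in the NC libraries. The role sums overlapped between the groups. Extremes were spread unevenly over the libraries. Both siMTFP1 3 and NC 3 held the lowest value for 4 of the 10 genes and the highest for none, while siMTFP1 1 held the highest for 4. Such counts were not made over all tested genes. Total FPKM was lowest in siMTFP1 1 (784366) and highest in siMTFP1 3 (892790) and NC 3 (862657), and the part of these totals was not tested.

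The other subunits of the writer complex differed widely in level, and 0 of 5 passed the threshold. CBLL1 (also called HAKAI), an E3 ubiquitin ligase of the complex, averaged 142 ± 24.5 FPKM in the libraries labelled siMTFP1 and 164 ± 21.4 FPKM in those labelled NC (SD, n = 3 each), the nearest in level to WTAP. VIRMA, the large scaffold that directs methylation toward transcript ends, averaged 5.09 ± 1.08 and 5.10 ± 0.856 FPKM in the siMTFP1 and NC libraries. The zinc finger protein ZC3H13 averaged 1.54 ± 0.190 and 1.51 ± 0.378 FPKM in the siMTFP1 and NC libraries. RBM15 and RBM15B, RNA-binding adaptors of the complex, averaged 1.18 ± 0.200 and 4.47 ± 0.505 FPKM in the siMTFP1 libraries, against 1.39 ± 0.208 and 3.83 ± 1.25 FPKM in the NC libraries.

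Of the other adenosine methyltransferases and their cofactor, 0 of 5 passed. METTL16, which methylates U6 small nuclear RNA and MAT2A mRNA, averaged 10.1 ± 1.91 FPKM in the libraries labelled siMTFP1 and 11.1 ± 0.686 FPKM in those labelled NC (SD, n = 3 each), a level close to that of METTL3. TRMT112, the activating partner of METTL5 and of several other methyltransferases, was far more abundant at 2159 ± 493 and 1978 ± 83.3 FPKM in the siMTFP1 and NC libraries. METTL5, the methyltransferase of 18S ribosomal RNA, averaged 5.00 ± 1.65 and 4.57 ± 0.433 FPKM in the siMTFP1 and NC libraries.

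Among 13 other proteins proposed to bind m6A, 11 were tested and 0 passed, with a positive log2 difference for 3 and a negative one for 8. The IGF2BP family, which stabilizes bound mRNAs, was represented mainly by IGF2BP3, at 127 ± 21.9 FPKM in the siMTFP1 libraries and 130 ± 13.4 FPKM in the NC libraries (SD, n = 3 each). IGF2BP2 averaged 9.11 ± 2.63 and 9.19 ± 1.67 FPKM in the siMTFP1 and NC libraries, and IGF2BP1 was listed at 0 in all libraries but siMTFP1 3 (0.08 FPKM) and NC 3 (0.05 FPKM). The nuclear protein HNRNPC averaged 167 ± 3.68 and 176 ± 6.66 FPKM, and FMR1, a translational regulator, 71.2 ± 7.56 and 76.6 ± 19.0 FPKM, in the siMTFP1 and NC libraries.

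Of the 10 tested partners of the YTH readers, 2 had a positive and 8 a negative log2 difference, with a median log2 difference of -0.089 and 0 past the threshold. SRSF3, a splicing factor that YTHDC1 recruits, had 33.58, 34.64 and 33.66 FPKM in the libraries labelled siMTFP1, against 40.26, 38.43 and 52.60 FPKM in those labelled NC. Each siMTFP1 library lay below each NC library, and the 3 siMTFP1 values were nearly equal. The log2 difference was -0.34 (limma adjusted p = 0.766). SRSF3 was the only gene of the 43 tested related genes whose groups did not overlap, where the share over all tested genes was 11.0%. RBM46 and MEIOC, germ-cell proteins that act with YTHDC2 in meiosis in the mouse, averaged 34.5 ± 6.85 and 3.30 ± 0.423 FPKM in the siMTFP1 libraries, against 38.6 ± 1.82 and 3.77 ± 1.41 FPKM in the NC libraries (SD, n = 3 each).

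In the S-adenosylmethionine cycle, which supplies the methyl donor, 6 of 9 genes were tested and 0 passed. MAT2A, the methionine adenosyltransferase of most tissues, averaged 15.4 ± 3.35 FPKM in the libraries labelled siMTFP1 and 16.3 ± 1.23 FPKM in those labelled NC (SD, n = 3 each). Its regulatory subunit MAT2B averaged 251 ± 45.8 and 269 ± 44.7 FPKM in the siMTFP1 and NC libraries. The liver form MAT1A was listed at 0 in all 3 siMTFP1 libraries and reached 0.09 FPKM in the NC libraries.

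Of the other AlkB homologues, the family of FTO and ALKBH5, 6 of 7 were tested and 0 passed, with a positive log2 difference for 3 and a negative one for 3. ALKBH6 had 1.89, 3.53 and 2.77 FPKM in the libraries labelled siMTFP1, against 1.91, 1.33 and 1.53 FPKM in those labelled NC. Its groups overlapped narrowly, at siMTFP1 1 and NC 1. Its log2 difference of 0.51 was the largest of the 43 tested related genes (limma adjusted p = 0.750), and it was the 1 gene of these 43 with an unadjusted p under 0.05, where 6.53% of all tested genes had one. ALKBH7 and ALKBH1 were the abundant homologues, at 87.2 ± 2.12 and 47.2 ± 7.75 FPKM in the siMTFP1 libraries, against 84.6 ± 24.0 and 44.4 ± 5.71 FPKM in the NC libraries (SD, n = 3 each).

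Over the 43 tested related genes, the log2 difference was positive for 16 and negative for 27, with a median log2 difference of -0.049, against 0.087 for the 10 m6A genes and 0.022 for all tested genes. The difference between these medians was not tested.

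**Figure D4:**
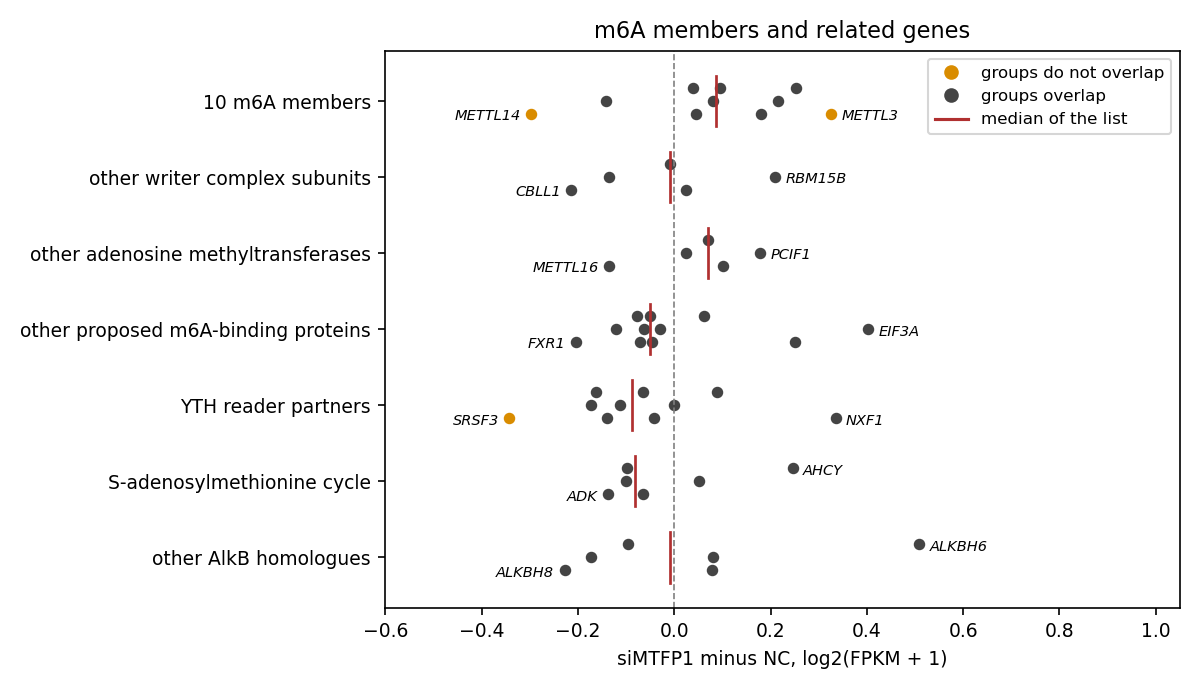
Difference in log2(FPKM + 1), siMTFP1 minus NC, for the 10 m6A genes and the 43 tested genes of 6 related lists, with each list's median as a red line and the lowest and highest gene of each list named. The points lie between -0.34 (SRSF3) and 0.51 (ALKBH6). The groups do not overlap in METTL3, METTL14 and SRSF3, where 11.0% of all tested genes showed no overlap.

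For the most abundant gene of each role, the genes nearest in pattern were sought by the root mean square difference of the centred log2(FPKM + 1) over the 6 libraries. COBLL1 (0.043) and APLF (0.044) lay nearest to WTAP, TUBB2B (0.046) and RETREG3 (0.067) to ALKBH5, DVL3 (0.051) and KBTBD4 (0.073) to YTHDF2, and POLDIP2 (0.032) and SULF2 (0.060) to YTHDC1. The measure compares the shape and size of the variation but not the mean level, so genes of very different level can be near. Whether these genes lie nearer than a search of so many genes over 6 libraries would give was not tested.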

How the data were processed

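Total RNA of oocytes was turned into mRNA libraries with a BGI dual-mode kit, according to the labels' protocols. FPKM were deposited by the authors, with 2 decimals, for the same 17325 genes in each library. In the submitters' processing notes the tools are RSEM 1.3.1, Bowtie2 2.3.4.3, HISAT2 2.2.1 and DESeq2 1.4.5 and the build is ARS-UCD1.2, without roles. FPKM are relative to a library's total, so very abundant genes depress the rest. No coordinates are printed, because the name table is of another build (ARS-UCD2.0).

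Libraries were grouped by title. On the log2(FPKM + 1) scale, the 9730 genes averaging 1 FPKM or more entered a limma 3.58.1 fit in R 4.3.3 of the group difference (trended empirical Bayes, two-sided), adjusted over all tested genes at 0.05. A count model was not used because the values are not counts. The fit was tested on simulated data, with changes larger than the difference of any member. That test therefore does not show whether changes of the members' size would be found. The FPKM + 1 scale understates changes of low genes such as FTO and YTHDC2. The members and lists were chosen with earlier results of these data known. Genes named are the 10 members, MTFP1, genes of the related and marker lists, and the nearest patterns. RPGRIP1L was added for its overlap with FTO, and LOC112449235 for its overlap with YTHDF1. Alternatives were other pseudocounts, filters and scalings, a replicate block and leaving out each library. Plots used Python 3.11.15 and matplotlib 3.10.9.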

Additional observations from a re-analysis of the deposited data

How the results depend on the processing

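Of 137 results for single members under 14 alternatives, 128 kept their direction, 9 changed sign and 0 crossed the threshold. The count of m6A genes past the threshold was 0 under each alternative, and that of the related genes likewise. Over all tested genes the count was 0, but 2 with a minimum mean of 5 FPKM, 2 with equal sums, and 0 to 2 when 1 library was left out. Leaving out 1 library gave log2 differences of -0.038 to 0.23 for WTAP, -0.20 to 0.23 for FTO, -0.036 to 0.49 for ALKBH5, -0.075 to 0.12 for YTHDF1, 0.053 to 0.42 for YTHDF2, -0.027 to 0.19 for YTHDF3, 0.15 to 0.36 for YTHDC1 and -0.28 to -0.023 for YTHDC2. Quantile normalization gave -0.018 for FTO and -0.013 for YTHDF1. The cause was not tested. METTL3 kept its direction in all 14, at log2 differences of 0.21 to 0.41 (limma adjusted p of 0.700 to 1.00), and METTL14 at -0.37 to -0.21 (0.665 to 1.00). The number of members with a positive log2 difference ranged from 6 to 8. It was 6 with a minimum mean of 5 FPKM, where FTO, YTHDC1 and YTHDC2 were not tested. The labels do not say that replicate numbers pair the libraries. Deviations of same-numbered libraries correlated at 0.034, -0.163 and 0.067 over genes, against -0.258 to 0.231 for libraries of unlike number. These values do not settle whether there was a pairing. With the replicate block 0 genes passed, and MTFP1 differed by 0.32 as before. The MTFP1 difference was 0.96 with a pseudocount of 0.1 and 0.089 with a pseudocount of 5. Depth is unknown, which limits what can be said of the low genes FTO, YTHDC1 and YTHDC2.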
